A study of Mus musculus with 8 samples.

Results

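Intronless protein-coding loci are loci that carry a coding-sequence identifier in the authors' merged annotation and whose reference transcripts each consist of a single exon. Of 31020 loci, 19989 were protein-coding by that criterion and 2041 were intronless, after 83 single-exon coding loci in a histone-cluster window on chromosome 13 had been left out. The choice used gene structure and no measured value. RNA came from bone marrow-derived macrophages of C57BL/6 mice, which are macrophages grown in culture from bone marrow. The groups were 4 libraries of cells given the type 2 cytokine interleukin-4 (IL-4) and 4 of untreated cells. The labels used here give no dose or duration of IL-4. They do not say whether the biological replicates came from separate animals, so a p-value here speaks of the spread between libraries, which may be technical.

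Most mammalian protein-coding genes are split by introns that are removed by splicing. Intronless genes skip that step, and they include large tandem families of sensory receptors, many other G protein-coupled receptors, the replication-dependent histones, several immediate-early transcription factors and the type I interferons. Because their mature and unspliced transcripts have the same sequence, a read from one cannot be told from a read from the other, and a read from genomic DNA looks the same too. The RNA here was total RNA, treated with DNase and depleted of ribosomal RNA, so transcripts without a poly(A) tail could be sequenced. The files do not pair their identifiers with gene names, so loci are given by identifier and mm9 position, no function is assigned to any of them, and the macrophage label could not be checked against marker genes. Total counts ran from 23071022 to 27783417 per library.

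Most intronless coding loci had no counted reads. No reads were counted at 1510 of the 2041 loci in any of the 8 libraries, and 531 had at least 1 read. The expression filter kept 172 loci, or 8.43%, while it kept 59.3% of the 17865 multi-exon coding loci and 44.4% of the loci of the whole annotation. Averaged over the 8 libraries, 138 intronless loci reached 1 CPM (reads of a locus relative to all counted reads in the library), 73 reached 10 CPM and 12 reached 100 CPM. A count of 0 was not always a lack of sequenced fragments. Among 135 loci whose FPKM (the authors' level per transcript length and library size) imply over 1000 fragments, 42 had under 10% of that number counted, and 23 of these had 0 counts. A bulk library gives the sum over its cells, so a change in the number of cells of a kind and a change in RNA per cell cannot be told apart here.

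Detection differed with genomic arrangement. Loci with no other intronless coding locus within 50 kb numbered 633, and 310 of them (49.0%) had 0 counts in all libraries. Of 162 loci in pairs, 108 (66.7%) had 0 counts. The remaining 1246 loci stood in 152 runs of 3 or more, and 1092 of them (87.6%) had 0 counts. In 91 of those runs no locus had a single read, and in 9 runs at least 1 locus passed the filter. The longest run held 52 loci on chromosome 2 (85419372 to 86379070), where 5 reads were counted over all 8 libraries. The pass rate was 21.2% for loci standing alone, 12.3% for pairs and 1.44% for runs.

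Length moved with the same classes. Median reference length was 1531 nucleotides (nt) for loci standing alone, 981 nt for pairs and 942 nt for runs. Of 1273 loci with a reference of up to 1000 nt, 87.0% had 0 counts and 2.67% passed the filter. Of 296 loci over 2000 nt, 40.2% had 0 counts and 27.7% passed. The part of length in the differences between arrangements was not tested. Chromosome 7 held the most intronless loci, 401, of which 17 were tested, followed by chromosome 2 with 326, of which 12 were tested.

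**Figure D1:**
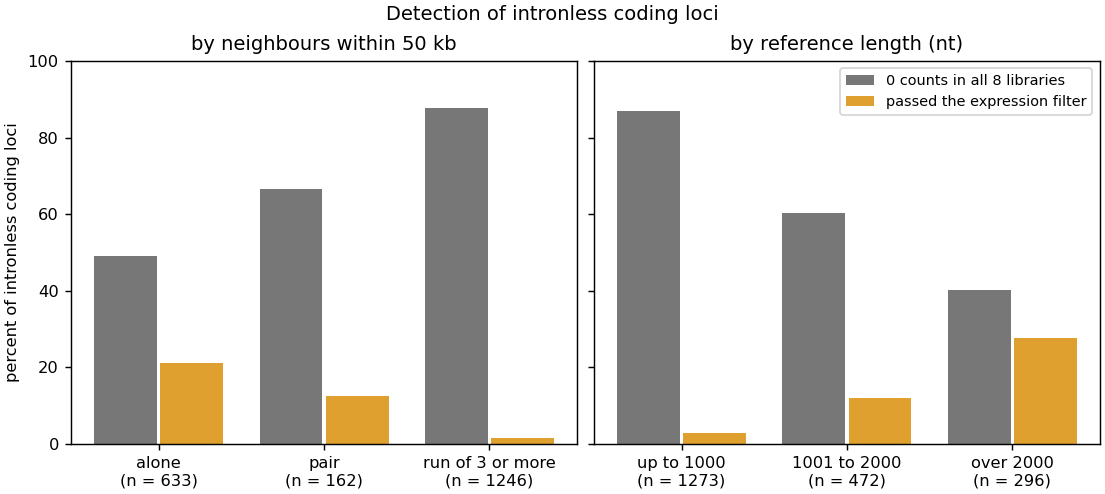
Percent of intronless coding loci with 0 counts in all 8 libraries (grey) and percent that passed the expression filter (orange), by the number of intronless neighbours within 50 kb (left) and by the length of the reference transcript in nt (right). The grey bars are highest for runs (87.6%) and for references of up to 1000 nt (87.0%).

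After IL-4, 44 of the 172 tested intronless loci rose and 33 fell, and 95 did not pass the test (edgeR quasi-likelihood test, two-sided, adjusted p under 0.05). That is 25.6% rising and 19.2% falling, beside 25.6% of tested loci rising and 26.2% falling over the whole annotation, so the share that rose was that of the background and the share that fell lay below it, a difference that was not tested. Among the 10590 tested multi-exon coding loci, 27.5% rose and 27.0% fell. The median log2 fold change, IL-4 over untreated, was 0.00 for intronless loci, -0.01 for multi-exon coding loci and -0.02 for the tested loci together. The median size of the change was 0.29, 0.30 and 0.32 in the same order.

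Most of the changes were small. Of the 44 rises 28 were under 2-fold, and of the 33 falls 21 were under 2-fold. Tested against a change of 1.5-fold with edgeR's glmTreat, 15 intronless loci rose and 11 fell, where 9.02% and 8.91% of the tested loci did so over the annotation. The CPM of the groups did not overlap at 68 of the 172 loci, or 39.5%, beside 50.2% over the annotation. They did not overlap at 60 of the 77 loci that were called. Called loci are picked by a difference between the groups, so the 50.2% is not a like share for them. For 23 of those 77, the call was lost when 1 or another of the 8 libraries was left out. Of the 172 loci, 5 had passed the filter through one group only, so that they had to differ, and all 5 were called: XLOC_007874, XLOC_008452 and XLOC_007873 rose, and XLOC_021410 and XLOC_004247 fell. Of the other 167 loci, 41 rose and 31 fell, or 24.6% and 18.6%.

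**Figure D2:**
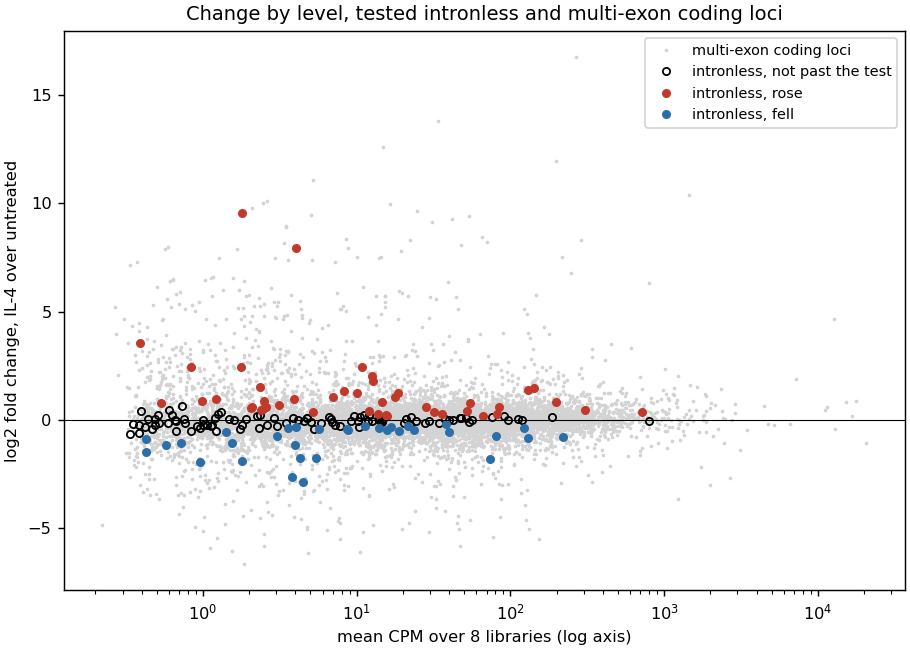
Log2 fold change in counts, IL-4 over untreated (vertical axis), against mean CPM over 8 libraries (horizontal log axis) for tested loci. Red points are the 44 intronless coding loci that rose, blue points the 33 that fell, open circles the 95 that did not pass, and small grey points the multi-exon coding loci, among which the intronless loci are spread.

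The largest rises were found for a pair of neighbours on chromosome 14. At XLOC_007874 (51823365 to 51884264, plus strand), 375 reads were counted in the IL-4 libraries and 0 in the untreated libraries. Per library the IL-4 values were 4.14, 3.71, 3.88 and 2.66 CPM, and the 4 untreated values were 0. Set against a floor of 3 counts over the untreated group, the locus was at least 117.7-fold higher with IL-4. The exons of this locus cover 7721 nt, of which the reference transcript makes up 6.05%, and 54.4% of them are shared with XLOC_008453 on the other strand.

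Its neighbour XLOC_008452 (51814996 to 51821027, minus strand) had 834 reads in the IL-4 libraries and 3 in the untreated libraries. Its level was 9.21, 6.95, 8.68 and 7.21 CPM with IL-4, against 0.0403, 0, 0 and 0.0835 CPM in untreated cells. The ratio was 261.7, with an exact binomial interval of 89.2 to 1272 at the 95% level, and 594.2 (106.3 to 23496) without untreated replicate 4. The third intronless locus of the run, XLOC_007873 (51781908 to 51782784), also rose, to 0.716 ± 0.297 CPM with IL-4, against 0.0617 ± 0.0549 CPM in untreated cells (SD, n = 4 each). The groups did not overlap at any of the 3 loci. All 3 passed the filter through the IL-4 libraries only, so they had to differ, and no p-value is given for them here.

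Some other loci of the same stretch gave values in the same direction. The 2-exon coding locus XLOC_007872 (51748540 to 51751859) had 41.9 ± 5.48 CPM with IL-4 and 14.5 ± 1.26 CPM in untreated cells (SD, n = 4 each), a log2 fold change of 1.64 (edgeR, adjusted p = 2.52e-07). At the unannotated locus XLOC_008768 (51805413 to 51807119), 126 reads were counted with IL-4 and 0 in untreated cells. XLOC_008768 too passed the filter through the IL-4 libraries only, so it had to differ. The 3 intronless loci thus lay in a stretch where other transcripts were higher with IL-4 too.

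The other large rises were spread over several chromosomes. XLOC_021011 on chromosome 5 (4753839 to 4758216), a single exon of 4378 nt, had 20.2, 19.2, 16.8 and 16.0 CPM with IL-4, against 2.097, 4.38, 3.38 and 4.26 CPM in untreated cells. The groups were far apart (log2 fold change 2.46 ± 0.18 SE, edgeR, adjusted p = 9.87e-07). XLOC_029513 on chromosome 9 (123168175 to 123169907, 1733 nt) had 22.5, 23.6, 18.4 and 15.9 CPM with IL-4, against 5.85, 5.58, 4.55 and 4.84 CPM in untreated cells. Each IL-4 library was above each untreated library (log2 fold change 2.05 ± 0.14 SE, adjusted p = 5.05e-07).

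XLOC_012068 on chromosome 17 (35093139 to 35109101) joins a pair of single-exon reference transcripts, of 2810 and 2798 nt, that do not overlap. Its level was 19.6 ± 3.14 CPM with IL-4 and 6.11 ± 1.02 CPM in untreated cells (SD, n = 4 each) (log2 fold change 1.78 ± 0.14 SE, edgeR, adjusted p = 2.00e-06). Both transcripts rose when tested apart on FPKM, the first to 4.32 FPKM with IL-4, against 1.22 FPKM in untreated cells, and the second to 3.40 FPKM with IL-4, against 1.19 FPKM in untreated cells. The count of the locus sums both.

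Among the 10 largest rises, 2 were at loci with over 100 CPM in every IL-4 library, XLOC_005751 and XLOC_019587. XLOC_005751 on chromosome 12 (8502425 to 8509279) had 209, 236, 205 and 169 CPM with IL-4, against 86.9, 79.3, 75.0 and 76.2 CPM in untreated cells (log2 fold change 1.47 ± 0.10 SE, edgeR, adjusted p = 3.62e-07). XLOC_019587 on chromosome 4 (94714130 to 94719124) had 189, 219, 185 and 149 CPM with IL-4, against 90.7, 73.4, 67.4 and 71.4 CPM in untreated cells (log2 fold change 1.39 ± 0.12 SE, adjusted p = 3.80e-06). At both loci the groups were well apart, and untreated replicates lay closer together than IL-4 replicates. The reference transcript of XLOC_005751 had 64.5 FPKM with IL-4, against 23.4 FPKM in untreated cells, and that of XLOC_019587 had 36.6 FPKM with IL-4, against 14.3 FPKM in untreated cells.

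Falls were led by XLOC_006956 on chromosome 13 (29040792 to 29045570). It had 1.04, 1.15, 1.25 and 0.665 CPM with IL-4, against 6.74, 11.1, 10.3 and 3.59 CPM in untreated cells. The untreated values were widely spread but all above the IL-4 values (log2 fold change -2.83 ± 0.34 SE, edgeR, adjusted p = 4.20e-05). XLOC_029520 on chromosome 9 (123891271 to 123935120) had 1.08, 0.972, 0.668 and 1.18 CPM with IL-4, against 4.80, 7.61, 7.28 and 6.59 CPM in untreated cells (log2 fold change -2.63 ± 0.20 SE, adjusted p = 1.14e-06). The exons of XLOC_029520 cover 6025 nt of that span, and the reference transcript makes up 24.2% of them.

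At XLOC_008099 on chromosome 14 (73637170 to 73643765) the fall lay inside another locus. It had 29.3, 29.5, 34.9 and 31.7 CPM with IL-4, against 78.2, 127, 123 and 134 CPM in untreated cells (log2 fold change -1.77 ± 0.15 SE, edgeR, adjusted p = 2.36e-06). Its single exon lies within the span of the coding locus XLOC_008619 on the opposite strand, which had 57.1 CPM with IL-4 and 85.3 CPM in untreated cells, a log2 fold change of -0.47 (adjusted p = 5.69e-04). The host thus fell as well, by a smaller fitted amount, and the difference between the pair was not tested.

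Pairs of neighbours fell side by side. On chromosome 19, XLOC_013672 (41904308 to 41907780, plus strand) had 2.32 ± 0.370 CPM with IL-4 and 8.58 ± 0.929 CPM in untreated cells (SD, n = 4 each). XLOC_014073 (41920465 to 41922622, minus strand) had 1.84 ± 0.158 CPM with IL-4 and 6.74 ± 0.366 CPM in untreated cells (SD, n = 4 each). Both had a log2 fold change of -1.77 (edgeR, adjusted p = 2.23e-06 and 4.20e-07). On chromosome 11, XLOC_004388 (58767550 to 58768014) had 2.36 ± 0.443 CPM with IL-4 and 5.58 ± 0.664 CPM in untreated cells (SD, n = 4 each), and its neighbour XLOC_003493 (58762413 to 58763032) had 0.444 CPM with IL-4, against 0.999 CPM in untreated cells. Their log2 fold changes were -1.13 and -1.07. Of the 20 tested loci in pairs, 10 fell and 0 rose, beside 26.2% falling and 25.6% rising over the annotation. The difference from the annotation was not tested.

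The other large falls were at low level. XLOC_021617 on chromosome 5 (124313581 to 124315518) had 0.732 CPM with IL-4 and 2.88 CPM in untreated cells, a log2 fold change of -1.87. XLOC_014409 on chromosome 2 (25562097 to 25565079) had 0.369 CPM with IL-4 and 1.54 CPM in untreated cells, a log2 fold change of -1.95. XLOC_030617 on the X chromosome (100379398 to 100382003) had 0.952 CPM with IL-4 and 2.15 CPM in untreated cells, a log2 fold change of -1.07. The groups did not overlap at any of the 10 loci with the largest falls, and at 9 of the 10 with the largest rises. These loci were picked by the size of a called difference, which favours groups that do not overlap.

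**Figure D3:**
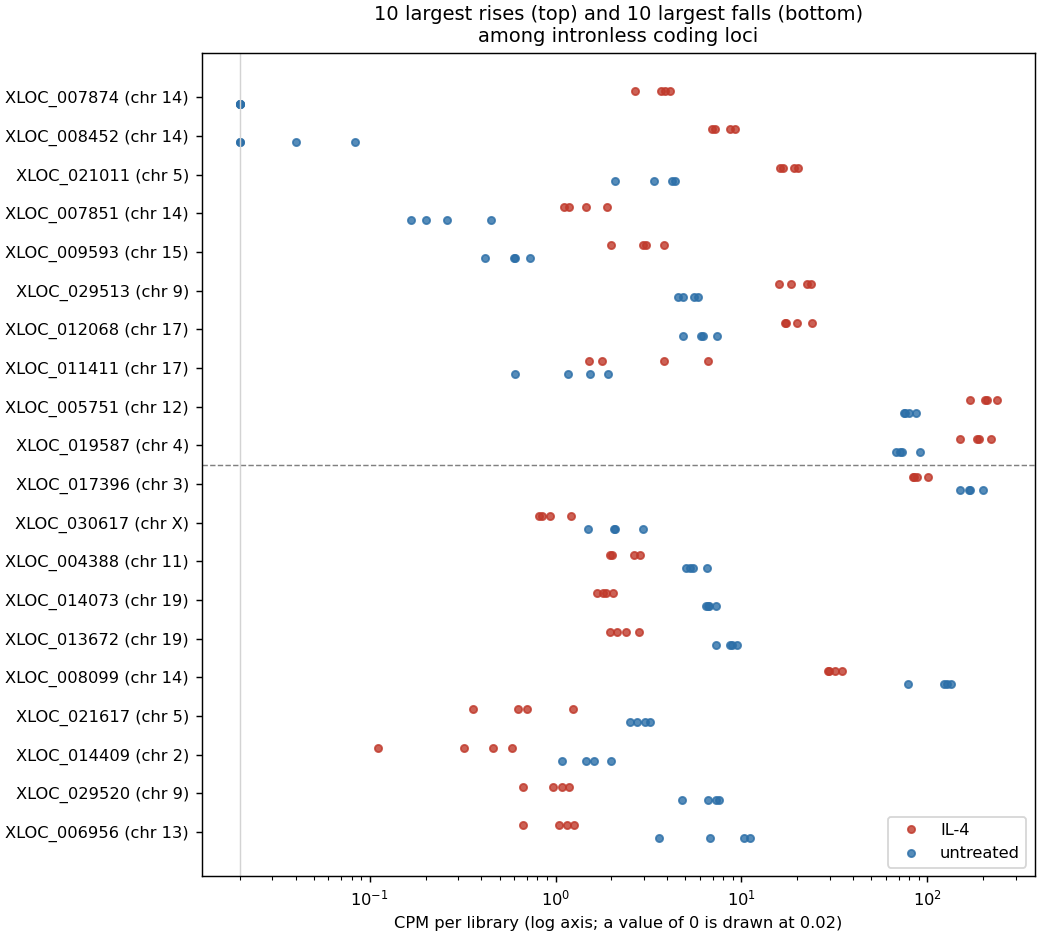
CPM in each library (horizontal log axis, with 0 drawn at 0.02) for the 10 largest rises (above the dashed line) and the 10 largest falls (below it) among intronless coding loci. Each point is 1 library, red for IL-4 and blue for untreated, and the colours overlap at XLOC_011411 on chromosome 17.

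Of the 8 intronless loci with the most counts, 5 rose, 1 fell and 2 did not pass the test, beside 25.6% rising and 26.2% falling over the annotation, a difference that was not tested. XLOC_021019 on chromosome 5 (5781494 to 5783620) had 803, 769, 718 and 746 CPM with IL-4, against 1025, 795, 747 and 814 CPM in untreated cells. The values overlapped (log2 fold change -0.05 ± 0.10 SE, edgeR, adjusted p = 0.700). XLOC_001207 on chromosome 1 (156941907 to 156947033) had 189 ± 22.2 CPM with IL-4 and 184 ± 21.9 CPM in untreated cells (SD, n = 4 each), with an adjusted p of 0.296.

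XLOC_008666 on chromosome 14 (103374530 to 103384006) had 885, 793, 713 and 720 CPM with IL-4, against 545, 754, 745 and 548 CPM in untreated cells. The groups overlapped (log2 fold change 0.37 ± 0.11 SE, edgeR, adjusted p = 0.0171). Leaving out IL-4 replicate 1 gave an adjusted p of 0.0510. XLOC_024152 on chromosome 7 (35901312 to 35909004) had 245, 260, 250 and 234 CPM with IL-4, against 129, 159, 162 and 142 CPM in untreated cells. The groups did not overlap (log2 fold change 0.85 ± 0.07 SE, adjusted p = 2.46e-06).

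XLOC_017201 on chromosome 3 (61161781 to 61182151) was the one of these loci that fell. It had 162, 133, 155 and 168 CPM with IL-4, against 274, 276, 297 and 296 CPM in untreated cells (log2 fold change -0.78 ± 0.08 SE, edgeR, adjusted p = 1.10e-05). XLOC_019488 on chromosome 4 (88362496 to 88368441) had 322, 325, 328 and 381 CPM with IL-4, against 255, 275, 267 and 278 CPM in untreated cells (log2 fold change 0.44 ± 0.08 SE, adjusted p = 5.39e-04). It stands in a run of 27 intronless loci (88167929 to 88526105), and of 62044 reads counted over that run 61981 fell on this locus and 63 on the other 26.

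Per length, the order of levels was another one. Among the 155 coding reference transcripts tested, the highest level was at XLOC_018869 on chromosome 4 (125181289 to 125182245), with 877 ± 92.7 FPKM with IL-4 and 811 ± 66.0 FPKM in untreated cells (SD, n = 4 each, limma, adjusted p = 0.391). At that locus 122 reads were counted in all, so the level by FPKM and the count stood far apart. The next were a transcript of XLOC_021019, with 269 ± 19.1 FPKM with IL-4 and 304 ± 66.0 FPKM in untreated cells, and XLOC_017956 on chromosome 3, with 180 ± 8.90 FPKM with IL-4 and 275 ± 28.5 FPKM in untreated cells (SD, n = 4 each). XLOC_018869 stood clear of the others, while XLOC_021019 and XLOC_017956 lay within each other's spread in untreated cells.

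Of 18 tested loci in runs of 3 or more, 11 rose and 2 fell, beside 25.6% rising and 26.2% falling over the annotation, a difference that was not tested. The 11 rises include XLOC_007873, XLOC_007874 and XLOC_008452, which passed the filter through the IL-4 libraries only and so had to differ. Neighbours in a run are not independent, and 7 of the rises came from the stretch on chromosome 14 and from another on chromosome 17. On chromosome 17, a run of 6 intronless loci (37660336 to 37809935) held 4 tested loci, and all 4 rose by counts. XLOC_012132 (37720338 to 37742781) had 14.4, 41.1, 26.6 and 20.1 CPM with IL-4, against 4.27, 13.5, 17.6 and 11.7 CPM in untreated cells (log2 fold change 1.24 ± 0.38 SE, edgeR, adjusted p = 0.0175). XLOC_012133 (37745911 to 37776168) had 14.9, 34.2, 26.1 and 18.7 CPM with IL-4, against 4.07, 14.1, 17.5 and 12.2 CPM in untreated cells (log2 fold change 1.09 ± 0.36 SE, adjusted p = 0.0251). Replicate 1 was the lowest library of its group at both loci.

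XLOC_012131 (37709241 to 37720260) and XLOC_011411 (37660336 to 37709103) followed with log2 fold changes of 1.35 (adjusted p = 0.0242) and 1.51 (adjusted p = 0.0196, both edgeR). The groups overlapped at all 4 loci. Without IL-4 replicate 2 the 4 adjusted p-values were 0.0653 at XLOC_011411, 0.0868 at XLOC_012131, 0.0596 at XLOC_012132 and 0.0804 at XLOC_012133, so each of these calls was lost without that library. With the replicate number as a block and all 8 libraries, the adjusted p-values were 2.98e-04 at XLOC_011411, 1.78e-04 at XLOC_012131, 2.63e-05 at XLOC_012132 and 6.07e-05 at XLOC_012133 (edgeR). XLOC_012131 also lost its call without untreated replicate 2 (adjusted p = 0.0514), and XLOC_012133 without IL-4 replicate 3 (adjusted p = 0.0560).

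The counted exons of these 4 loci are long because transcripts assembled by the authors extend them. The reference transcripts make up 2.13% of the exonic length of XLOC_011411, 8.52% of XLOC_012131, 4.18% of XLOC_012132 and 6.48% of XLOC_012133. The reference transcript of XLOC_011411 did not pass the test on FPKM, with 4.61 ± 0.752 FPKM with IL-4 and 3.58 ± 1.45 FPKM in untreated cells (SD, n = 4 each, log2 fold change 0.47 on the log2(FPKM + 0.1) scale, limma, adjusted p = 0.323). Next to the run, at lower coordinates, lie 2 multi-exon coding loci that rose. The 5-exon locus XLOC_012129 (37616992 to 37620513) had 50.6 ± 21.7 CPM with IL-4 and 8.85 ± 3.92 CPM in untreated cells (SD, n = 4 each, log2 fold change 2.62, edgeR, adjusted p = 1.50e-04). XLOC_011410 (37629084 to 37647014) had 21.0 ± 6.46 CPM with IL-4 and 10.8 ± 3.36 CPM in untreated cells, a log2 fold change of 1.07 (adjusted p = 0.00450). Whether the signals of the run and its neighbours have a common source was not tested.

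**Figure D4:**
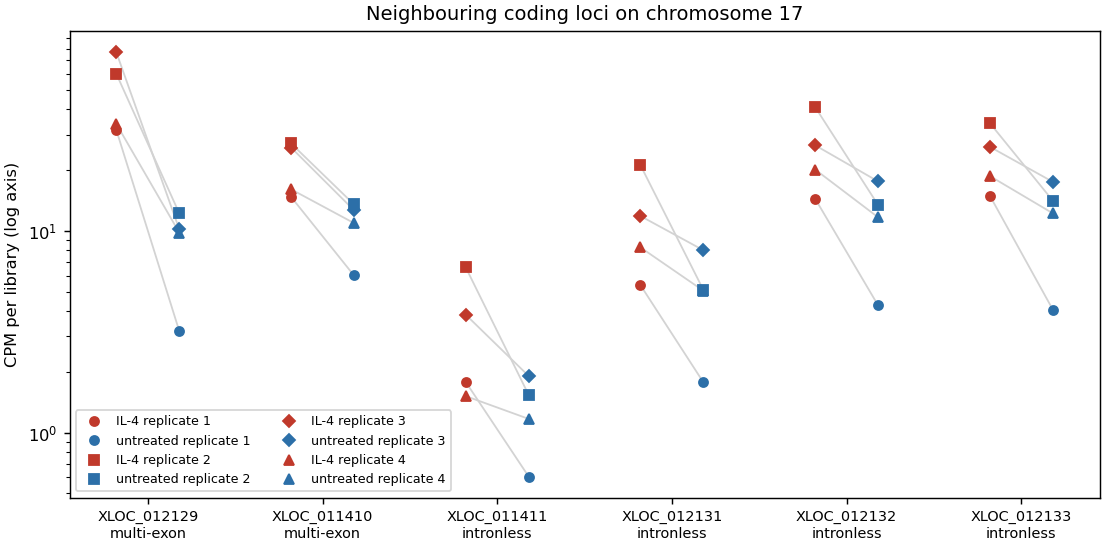
CPM per library (vertical log axis) at 2 multi-exon and 4 intronless coding loci that neighbour each other on chromosome 17, with IL-4 in red on the left and untreated in blue on the right of each pair, and lines joining libraries with the same replicate number. IL-4 lies above untreated in each same-numbered pair, while the groups overlap at the 4 intronless loci.

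Counts and FPKM disagreed in a run of 7 intronless loci on chromosome 3 (96013564 to 96075431). By counts, XLOC_017396 (96063959 to 96075431) fell, with 101, 83.3, 84.3 and 87.5 CPM with IL-4, against 198, 170, 166 and 149 CPM in untreated cells (log2 fold change -0.83, SE 0.09, edgeR, adjusted p = 2.53e-05). XLOC_017955 (96042039 to 96043050) rose, with 3.37, 2.74, 3.30 and 3.22 CPM with IL-4, against 1.33, 1.499, 2.25 and 2.21 CPM in untreated cells (log2 fold change 0.90, SE 0.19, adjusted p = 0.00191). XLOC_017956 and XLOC_017395 did not pass, with log2 fold changes of 0.04 and 0.03. XLOC_017394 passed with the replicate number as a block (adjusted p = 0.0233) and not without it (adjusted p = 0.262), and its log2 fold change without the block was -0.43.

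By FPKM, 6 of these 7 loci fell. XLOC_017955 had 18.5, 17.02, 18.2 and 18.6 FPKM with IL-4, against 31.5, 26.2, 28.7 and 24.9 FPKM in untreated cells (log2 fold change -0.61 ± 0.08 SE on the log2(FPKM + 0.1) scale, limma, adjusted p = 3.91e-04), opposite to its counts. XLOC_017956 had 188, 169, 177 and 187 FPKM with IL-4, against 317, 263, 254 and 266 FPKM in untreated cells, with a log2 fold change of -0.60 (adjusted p = 4.04e-04). The change at XLOC_017395 was -0.59, at XLOC_017954 -0.81 and at XLOC_017957 -0.82, and both transcripts of XLOC_017396 fell as they did by counts.

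These loci differed in how many reads had been counted. From its FPKM, its length and the library totals, XLOC_017956 would have had about 26564 fragments, and 303 reads, or 1.14% of that, were counted. The same percentage was 1.65% at XLOC_017395, 10.8% at XLOC_017955 and 92.4% at XLOC_017396. Totals of counts stood in for totals of mapped fragments in this estimate, so it is a rough one, and its median over the 172 tested loci was 150%. XLOC_017954 and XLOC_017957 had 2 and 0 reads, and 98.7% and 100% of their exons are shared with a locus of the other strand.

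Over all 2041 loci, 2050 reference coding transcripts were listed, and 155 of them were tested on FPKM. Of the 155, 34 rose and 31 fell (limma, adjusted p under 0.05), where 19.8% and 18.5% of 17500 tested transcripts did so over the annotation. Some of the 65 called transcripts passed the filter through one group only, so they had to differ. Among them were the rises at XLOC_008363, XLOC_008452, XLOC_021011 and XLOC_025993. The groups did not overlap at 71 of the 155, beside 38.9% over the annotation. For 15 of the 65 called transcripts, the call was lost when 1 or another library was left out. Counts and FPKM were both tested for 109 transcripts, with the same call for 93 and fitted changes of opposite sign for 8. XLOC_017955 was the one that passed both tests in opposite directions.

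**Figure D5:**
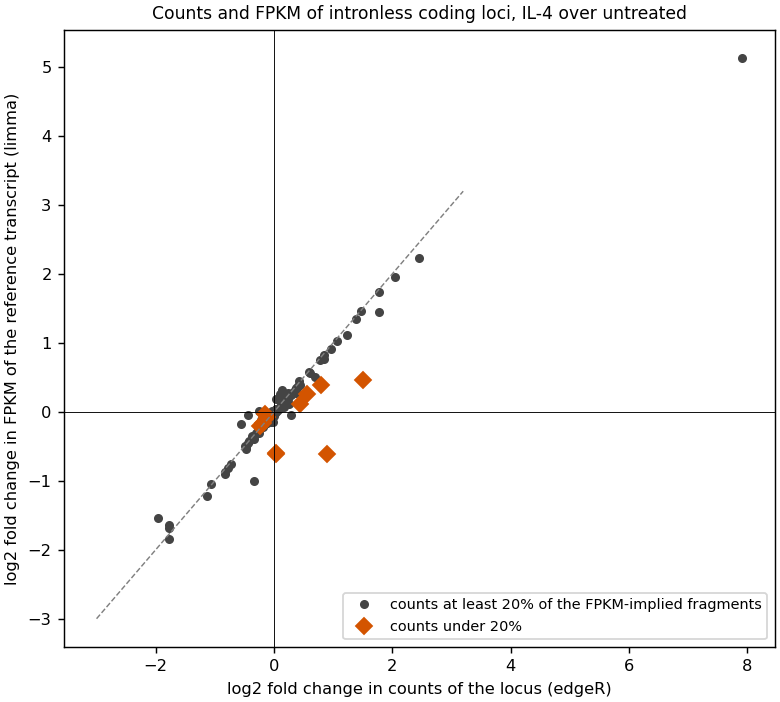
Log2 fold change of the reference transcript in FPKM (vertical axis) against log2 fold change of its locus in counts (horizontal axis), IL-4 over untreated, for 109 intronless coding transcripts tested both ways. Most points follow the dashed line of equality, and 3 of the 11 transcripts whose counts were under 20% of the fragments that FPKM imply (orange diamonds) lie near -0.60 in FPKM and at or above 0 in counts.

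Another 46 transcripts were tested on FPKM alone, since their loci had too few counts. Their loci had 0 counts in 28 cases, and over 50% of the exonic length was shared with another locus in 36. Of the 46, 9 rose and 7 fell, beside 19.8% rising and 18.5% falling over all 17500 tested transcripts, a difference that was not tested. The following 3 were chosen after their values were seen. XLOC_015146 on chromosome 2 (125498836 to 125501378) had 32.8, 24.5, 25.6 and 33.3 FPKM with IL-4, against 87.7, 90.6, 84.5 and 92.3 FPKM in untreated cells (log2 fold change -1.62 ± 0.11 SE, limma, adjusted p = 9.65e-06). Its locus has 0 counts and shares its whole length with XLOC_016324, whose counts had a log2 fold change of -1.94.

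XLOC_026726 on chromosome 8 (73221638 to 73224515) had 42.4, 46.2, 37.1 and 35.5 FPKM with IL-4, against 22.6, 22.8, 21.6 and 22.2 FPKM in untreated cells (log2 fold change 0.84 ± 0.08 SE, limma, adjusted p = 8.97e-05), and 30 reads were counted there. XLOC_008363 on chromosome 14 (44500563 to 44501033) had 17.02, 22.2, 26.0 and 15.7 FPKM with IL-4 and was listed at 0 in the 4 untreated libraries, and 22 reads were counted. XLOC_008363 passed the FPKM filter through the IL-4 libraries only, so it had to differ. The same held for XLOC_025993, another rise among the transcripts tested on FPKM alone. Low counts at these loci went with shared exons at the first 2 and with no shared base at XLOC_008363.

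Counts of a locus also took in transcripts other than its reference. Of the 172 tested loci, 84 hold transcripts assembled by the authors besides the reference, and the reference made up a median of 43.9% of their exonic length. By FPKM the reference held over 90% of the locus total, in the group where the locus was higher, at 136 of the 172 loci. These include the 88 tested loci without assembled transcripts, where the reference had to hold the whole total. The reference held under 10% at 8 loci, 7 of which had been called. Those 7 include 3 of the 10 largest rises, XLOC_007874, XLOC_007851 and XLOC_009593, and 2 of the 10 largest falls, XLOC_006956 and XLOC_029520. The others were XLOC_007873 and XLOC_020620.

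In the group where each of the 5 loci among the largest rises and falls was higher, over 90% of the FPKM was thus assigned to assembled transcripts. The reference makes up from 6.05% (XLOC_007874) to 95.4% (XLOC_007851) of their exonic length. Assembled transcripts can therefore lie on the reference exon, and where the reads fell was not tested. XLOC_007851 on chromosome 14 (50977595 to 50983386) had 1.41 ± 0.355 CPM with IL-4 and 0.270 ± 0.126 CPM in untreated cells (SD, n = 4 each, log2 fold change 2.45, edgeR, adjusted p = 5.62e-05), while its reference transcript had 0.00434 FPKM with IL-4 and 0.0532 FPKM in untreated cells. XLOC_009593 on chromosome 15 (75575905 to 75578355) had 2.97 ± 0.760 CPM with IL-4 and 0.587 ± 0.127 CPM in untreated cells (SD, n = 4 each, log2 fold change 2.43, adjusted p = 9.65e-06), while its reference had 0.00607 FPKM with IL-4 and 0.0221 FPKM in untreated cells. XLOC_008452 was different, since its reference held 75.5% of the FPKM with IL-4, with 4.08 ± 0.650 FPKM, against 0.0241 ± 0.0483 FPKM in untreated cells (SD, n = 4 each).

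Of the 172 tested loci, 46 lie inside the span of another locus, 23 of them on its strand and 23 on the other strand. Of these 46, 4 rose and 9 fell, or 8.70% and 19.6%, beside 25.6% and 26.2% over the annotation. For 7 of the 13, or 53.8%, the surrounding locus was called as well, each time in the same direction. The surrounding locus of XLOC_021792 was tested and did not pass (edgeR, adjusted p = 0.266). Those of XLOC_005466, XLOC_013993, XLOC_014409, XLOC_022551 and XLOC_030617 were not tested. Over the annotation 51.8% of tested loci were called, which is not a like share, since the 53.8% counts untested surrounding loci too. Besides XLOC_008099, the largest fall with a called surrounding locus was at XLOC_004247 on chromosome 11 (29722395 to 29725668), with 0.213 CPM with IL-4 and 0.640 CPM in untreated cells (log2 fold change -1.47). It passed the filter through the untreated libraries only, so it had to differ. Its host XLOC_004246 on the same strand had 96.7 CPM with IL-4 and 215 CPM in untreated cells (log2 fold change -1.04, edgeR, adjusted p = 0.00260). Reads from an intron of a host on the same strand cannot be told from reads of the intronless transcript. Whether the counts separate reads of a host on the other strand is not known, since their strand setting is not given.

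The mitochondrial chromosome holds 1 intronless locus, XLOC_029688, which spans positions 7 to 16299 of the plus strand and joins 8 reference transcripts, 1 of them with a coding-sequence identifier. It had 0 counts in every library, and its whole length is shared with a locus on the opposite strand that also had 0 counts. In FPKM, 2 of its other reference transcripts were tested. The one at 5327 to 6938 had 2429, 3494, 3244 and 3095 FPKM with IL-4, against 1433, 2215, 2329 and 1968 FPKM in untreated cells. The groups did not overlap (log2 fold change 0.64 ± 0.18 SE, limma, adjusted p = 0.0198), and the adjusted p was 0.0558 with IL-4 replicate 2 left out and 0.0526 with IL-4 replicate 3 left out. The transcript at 7010 to 7699 had 638, 988, 983 and 945 FPKM with IL-4, against 226, 576, 657 and 485 FPKM in untreated cells, a range in which the groups overlap. Its adjusted p was 0.0440, and it ran up to 0.1003 when single libraries were left out.

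As a share of counted reads, intronless coding loci made up 0.570%, 0.564%, 0.527% and 0.521% in the IL-4 libraries, against 0.545%, 0.544%, 0.535% and 0.516% in the untreated libraries. The means were 0.546 ± 0.0251% with IL-4 and 0.535 ± 0.0134% in untreated cells (SD, n = 4 each). The difference of 0.0107 percentage points was within the spread between replicates (two-sided exact permutation test, p = 0.457, where the smallest p that 4 against 4 allows is 0.0286).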

How the data were processed

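RNA-seq libraries of IL-4-treated and untreated bone marrow-derived macrophages (n = 4 each) were analysed. The submitters' processing notes name mm9 as the build, TopHat2 2.0.9 and Cufflinks 2.1.1, HTSeq, and CASAVA 1.8.2. Their settings, such as strand or the treatment of reads that touch more than 1 locus, are not given in the sources used here. Deposited by the authors were raw read counts per merged locus, FPKM per transcript and the merged annotation. FPKM came from the authors without counts, so their depth is unknown.

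Reference transcripts are those that the annotation marks as equal to a known transcript. Loci within 50 kb of each other formed a run where 3 or more stood together. Of the identifiers, 0 occurred in the gene tables at hand, so no sequence or gene name is given. For counts, 13761 loci that passed edgeR's default filter entered the quasi-likelihood test of edgeR 4.0.16 (R 4.3.3) with TMM factors, Benjamini-Hochberg adjustment over all tested loci and a threshold of 0.05. Standard errors (SE) were derived from the F statistic. For FPKM, limma 3.58.1 was run with a variance trend on log2 values after adding 0.1, over 17500 transcripts that reached an FPKM of 1 in 4 or more libraries. Folds on that scale understate changes of low transcripts. Floors of 3 counts and intervals cover counting error only. Both fits were tested on simulated data.

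The loci described one by one were the 10 largest rises and 10 largest falls past the threshold with 1 CPM or more in the higher group, the 8 loci with the highest mean CPM, loci in runs, and loci at 0 counts in one group. The members and these rules were chosen with earlier results of these data known. Deviations from the group means of same-numbered libraries correlated at 0.390, 0.148, 0.225 and 0.177 for replicates 1 to 4, so the numbers were taken to pair the libraries in an alternative fit. The labels state no pairing, and the main fits are without this block. Alternatives were other scaling factors, filters, pseudocounts, DESeq2 1.42.0, glmTreat, the replicate block, stricter membership and each library left out in turn.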

Additional observations from a re-analysis of the deposited data

Results flagged for a closer look

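The CPM of 38 loci described singly, and the share of counts, were searched in each group for a library far from the other 3, and 1 of 78 groups of values stood out. At XLOC_019488 on chromosome 4, IL-4 replicate 4 had 381 CPM, against 322 to 328 CPM in the other 3 IL-4 libraries, and its gap to the nearest of them was 0.890 of the range of the group. Chance marks about 1 in 20 groups of this size. The rise of this locus was also called with that library left out.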

How the results depend on the processing

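Of the 44 rises and 33 falls in counts, 15 and 11 were called against a change of 1.5-fold. Every other setting gave counts within 1.5 times: 63 and 35 with no filter, 62 and 30 with DESeq2, 46 and 36 with the replicate block, 35 to 45 and 25 to 33 with single libraries left out, and 40 and 24 for loci outside the span of others. With the block, XLOC_017394 was gained among the loci described singly, with a log2 fold change of -0.44, and none of them was lost. FPKM gave 37 rises and 26 falls with the replicate block, where 6 called transcripts lost their call (adjusted p = 0.0509 to 0.0972, XLOC_010250 the lowest and XLOC_005304 the highest) and 4 gained one. The difference in the share of counts was -0.000699 percentage points without the 3 most abundant loci (exact permutation p = 0.943), and within replicate pairs its exact p was 0.375. Fitted changes near 0 turned sign with single libraries left out, from -0.0766 to 0.175 at XLOC_017956, from -0.0862 to 0.173 at XLOC_017395 and from -0.121 to 0.0634 at XLOC_021019. Without both replicate 4 libraries XLOC_017956 was at -0.17. The weak fall of XLOC_013531 (log2 fold change -0.28, adjusted p = 0.0461) was lost under RLE factors, no filter, DESeq2 and 7 of the 8 single-library omissions, and the small rise of XLOC_022783 (0.19) without IL-4 replicate 4 or untreated replicate 3. The causes were not tested. Reads per locus, exons shared between loci and the unknown depth of FPKM limit what can be said of the loci with few counts.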
